A study of Mus musculus with 2 samples.

Results

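The Hippo pathway genes described here are 10 listed genes: the kinase gene *Stk3* and its scaffold gene *Sav1*, the kinase genes *Lats1* and *Lats2*, the upstream regulator gene *Nf2*, the coactivator genes *Yap1* and *Wwtr1* (TAZ), their DNA-binding partner gene *Tead1*, and the target genes *Ccn1* (*Cyr61*) and *Ccn2* (*Ctgf*). The members were taken by name, as all probe sets to which the platform annotation gives exactly 1 of these symbols. This rule found 26 of the 34945 probe sets with 1 symbol on the array, for 9 of the 18193 genes so named. *Stk3* was not analysed here, since no probe set carried its name alone. The symbol *Taz* names the tafazzin gene in this annotation and was not used for TAZ.

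Brain mononuclear cells of wild-type (WT) and CD47 KO (*Cd47*-/-) male mice were compared on GeneChip Mouse Genome arrays, to ask how gene expression in a preparation enriched in microglia differs when CD47, the ligand of SIRPα, is missing in all cells. RNA of 7 WT mice aged 10 to 15 wks and of 6 CD47 KO mice aged 12 to 16 wks was combined by genotype, and each pool was read on 1 array. The labels name no other allele or treatment in either group. There are therefore no replicates, and no p-value or error between animals can be attached to any difference. Fewer cells of a type and less RNA per cell cannot be told apart in such bulk samples.

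The Hippo pathway is a kinase cascade that holds back growth-promoting transcription. STK3 (MST2) and its relative STK4, bound to the scaffold SAV1, activate LATS1 and LATS2 with the help of the NF2 protein Merlin, and the LATS kinases phosphorylate YAP and TAZ, which then stay in the cytoplasm or are degraded. When the kinases are quiet, YAP and TAZ enter the nucleus, bind TEAD factors and raise the transcription of genes such as *Ccn1* and *Ccn2*. In the adult brain YAP and TAZ are known mainly from astrocytes, ependymal cells and cells of the vessels and meninges, while most neurons and microglia hold little of them.

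TEAD factors recognise the short DNA word GGAATG, or CATTCC on the other strand, and this word was searched on both strands in the RefSeq promoter windows (GRCm38.p6, 250 bases before to 50 bases after each annotated start). Windows were on hand for 7 of the members, and those of 5 members held the word, against 16.6% of the 27025 genes with windows. The stretches below are shown because they place the DNA word of the pathway's own output factor beside the genes whose signals follow, with the word in capitals and all 5 on the minus strand.

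*Ccn1*, chr3:145650073-145650098: cgccaaccaaCATTCCtgagatgttt
*Yap1*, chr9:8004722-8004747: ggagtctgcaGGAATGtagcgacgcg
*Wwtr1*, chr3:57576031-57576056: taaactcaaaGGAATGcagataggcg
*Sav1*, chr12:69987093-69987118: gctttcccagCATTCCcagcggcgcg
*Lats2*, chr14:57746104-57746129: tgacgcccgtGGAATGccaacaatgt

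The word began 103 bases before the annotated start in *Ccn1*, 141 bases before it in *Yap1* and 106 bases before it in *Sav1*. In *Wwtr1*, which has overlapping windows for neighbouring starts, it began 136 and 170 bases before them. In *Lats2* it lay just after the start, at base 5 of the transcript. The windows of *Lats1* and *Nf2* did not hold these letters. A match of 6 letters is a description of the sequence and not a measured binding site.

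Each value is the MAS5 signal of a probe set, its brightness on a linear scale, which the authors' software had scaled so that the trimmed mean was 500.002 on each array, and the Log2 ratio is that of CD47 KO over WT. A probe set was taken as expressed when it reached the median of its array, 161 in WT and 146 in CD47 KO, on at least 1 array. *Cd47* had 5 expressed probe sets with Log2 ratios between -1.45 and -1.86, all lower on the array labelled CD47 KO. Their signals on that array, from 334 to 1688, were still above its median. The microglial marker gene *Csf1r*, a growth factor receptor gene, was bright, with signals of 15185 and 15949. *Xist*, the RNA of X inactivation, reached 7070 and 6530 although the labels name males. The brightest probe sets of the Y-linked genes *Kdm5d* and *Eif2s3y* had 162 and 307, and 189 and 461. Whether the pools differ in sex was not examined. Log2 ratios come from signals as deposited unless a constant is named, and a signal ranks the brightness of a probe set, not the abundance of a transcript against that of another gene.

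Differences past 2-fold were found at the output end of the pathway and in 2 of the upstream genes, nearly all of them towards lower signals in CD47 KO cells. More than 2-fold lower were 6 of 22 expressed probe sets, against 5.49% of all expressed probe sets. Of the 6, 4 reached the array median in WT alone, so that their direction was fixed. The target genes *Ccn1* and *Ccn2* and the partner gene *Tead1* each had at least 1 probe set more than 2-fold lower, although the 4 *Ccn1* probe sets did not agree in direction. *Yap1* was moderately lower, and *Wwtr1* was level on its expressed probe set. Of the upstream genes, *Lats1* and *Sav1* lay near 0, and *Nf2* and *Lats2* were divided between their own probe sets.

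*Ccn1* encodes a secreted matrix protein that binds integrins, and its transcript is induced within minutes by serum, stretch and YAP. Probe set 1442340_x_at went from a signal of 419 in WT to 141 in the CD47 KO pool (Log2 ratio -1.57). Probe set 1457823_at went from 336 to 113, with the same Log2 ratio of -1.57. These probe sets were designed on the same sequence accession, so they may not be separate readings of the gene. The overlap of their probes was not examined. The other *Ccn1* probe sets did not repeat the difference, since 1416039_x_at had 194 and 166 (-0.22) and 1438133_a_at had 111 and 247 (1.16). The mean over the 4 probe sets was -0.55 with an SD of 1.30, so the disagreement within the gene was larger than the mean difference.

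*Ccn2*, whose product is a secreted partner of TGF-β in matrix formation, has 1 probe set here. Its signal was 326 in WT cells against 162 in CD47 KO cells. The Log2 ratio was -1.01, just past 2-fold. With the 25th percentile of all signals (39.2) added to both values, the ratio was -0.86.

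*Tead1* encodes the DNA-binding factor through which YAP and TAZ reach their target genes. Probe set 1423434_at had 335 in WT and 139 in the CD47 KO pool (-1.27). Probe set 1429556_at had 195 and 164 (-0.25). Both were lower in CD47 KO cells, by different amounts. Of its relatives, *Tead2* had 186 and 110 (-0.76) on its expressed probe set, and the probe sets of *Tead3* and *Tead4* stayed below the median of both arrays.

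*Yap1*, the gene of the coactivator YAP, had a signal of 836 in WT cells against 602 in CD47 KO cells on 1448363_at (-0.47). Its other probe set, 1416487_a_at, was dim on both arrays, with 85.8 and 18.9, and its Log2 ratio of -2.19 rests on values below the medians. *Wwtr1*, the gene of the paralogous coactivator TAZ, had 319 and 331 on 1417818_at, a Log2 ratio of 0.05. Its dim probe sets 1417817_a_at (139 and 78.8) and 1437155_a_at (112 and 66.9) had Log2 ratios of -0.82 and -0.74. The coactivator genes thus had no expressed probe set past 2-fold, and all 3 of their dim probe sets were lower in CD47 KO cells. The lower range of all signals was also lower on the CD47 KO array, with a 25th percentile of 35.4 against 43.0 in WT. The share of all dim probe sets that were lower was not computed.

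*Lats1*, the gene of a kinase that phosphorylates YAP and TAZ, had 570 and 550 on 1435739_at and 448 and 386 on 1427679_at. The Log2 ratios were -0.05 and -0.22, among the smallest of the members. *Sav1*, the scaffold gene, had 318 and 264 on 1416075_at and 181 and 206 on 1448204_at. Its Log2 ratios of -0.27 and 0.18 differed in sign and were both small.

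*Lats2*, the gene of the second LATS kinase and itself a known target of YAP, was read by 6 probe sets that did not agree in direction. The brightest, 1439441_x_at, had 1031 in WT and 1190 in CD47 KO cells (0.21), and 1437101_at had 457 and 604 (0.40). The dimmer 1426156_at had 296 and 125 (-1.24), and 1419678_at had 264 and 151 (-0.80). A further probe set from the same accession as the latter, 1419679_at, had 116 and 153 (0.40), and 1425420_s_at was below both medians with 112 and 76.1 (-0.55). The SD over the 5 expressed probe sets was 0.76 and their mean -0.21.

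*Nf2*, whose product Merlin links membrane contacts to the LATS kinases and is lost in schwannomas and meningiomas, was likewise divided. Probe set 1450382_at had 455 in WT and 154 in the CD47 KO pool (-1.56), while 1421820_a_at, from the same accession, had 265 and 198 (-0.42). The others were higher in CD47 KO cells, with 222 and 317 (0.52) on 1427708_a_at and 193 and 270 (0.48) on 1451829_a_at. The mean over the 4 probe sets was -0.25, with an SD of 0.98. Which transcript forms these probe sets read was not examined here.

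**Figure D1:**
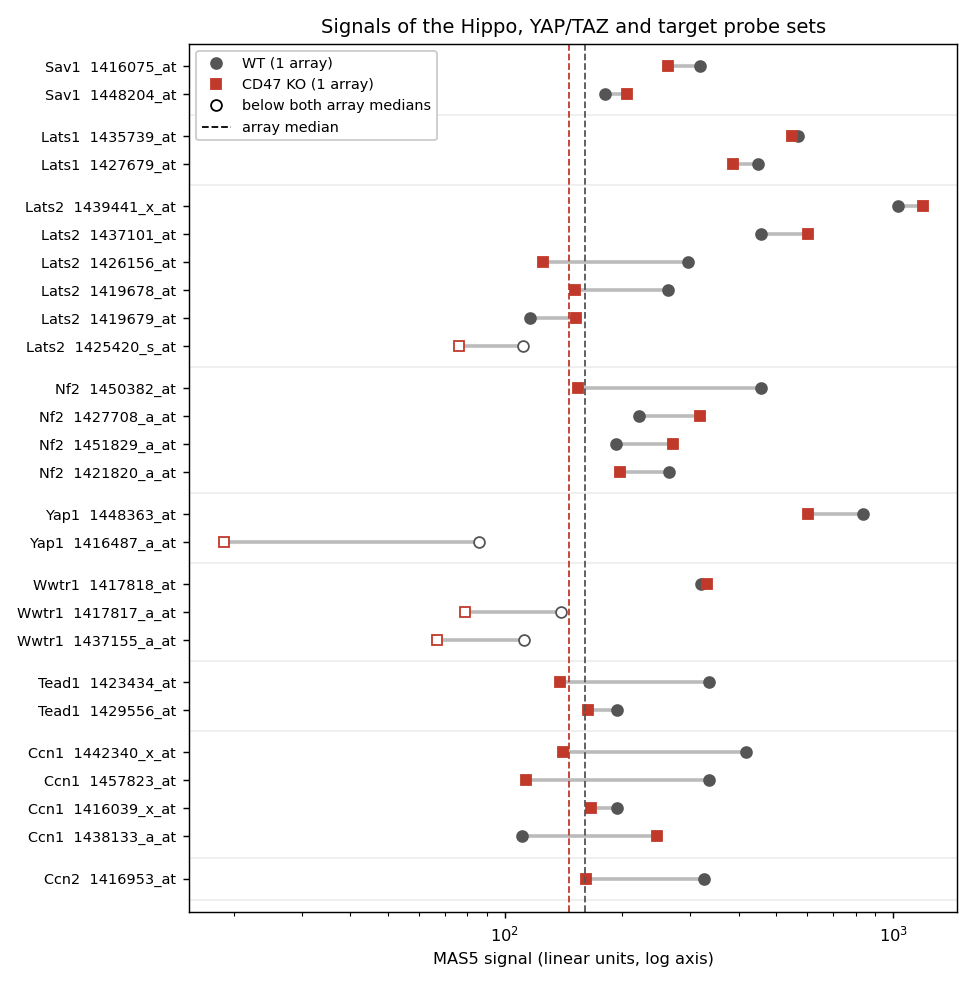
MAS5 signal (log axis) of each of the 26 probe sets in WT (circles) and CD47 KO (squares), with 1 array per genotype, grouped by gene in the order kinases and scaffolds, coactivators and TEAD, targets. Dashed lines are the array medians of 161 and 146, and open symbols mark the 4 probe sets below both. The long bars to the left belong to *Ccn1*, *Tead1*, *Nf2*, *Lats2*, *Ccn2* and the dim *Yap1* probe set, and *Ccn1* also has a bar to the right.

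In all, 22 of the 26 probe sets were expressed, 14 of them lower and 8 higher in CD47 KO cells, with a median Log2 ratio of -0.24. The median over all 21167 expressed probe sets with 1 symbol was 0.01. More than 2-fold lower were 6 of the 22, from 5 genes, where 5.49% of all expressed probe sets were. More than 2-fold higher was 1 of the 22, against 3.95%. The members were mostly dim, with 12 in the dimmest 25% of the expressed probe sets ranked by mean signal, 6 in the next 25% and none in the brightest 25%. In the dimmest 25%, 4 of 12 were more than 2-fold lower and 1 of 12 higher, against backgrounds of 13.7% and 10.2%. In the next 25%, 2 of 6 were lower, against 5.61%.

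The signal threshold bears on these counts. Of the 6 lower probe sets, 4 (the *Lats2* and *Tead1* probe sets and both of *Ccn1*) reached the median on the WT array alone, and such a probe set had to be dimmer in CD47 KO cells. The 1 higher *Ccn1* probe set reached it on the CD47 KO array alone. Of the 16 that reached it on both arrays, 2 were more than 2-fold lower (*Nf2* 1450382_at and *Ccn2*) and none higher, where 2.29% of all such probe sets were lower. The CD47 KO signals of the 6 lower probe sets lay between 113 and 162, close to the array median. With the constant of 39.2 added, 5 of the 6 still passed 2-fold. Probe sets of 1 gene differ among themselves in any case, with an SD of 0.84 in genes whose brightest probe set was in the dimmest 25% and 0.73 in the next 25%.

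**Figure D2:**
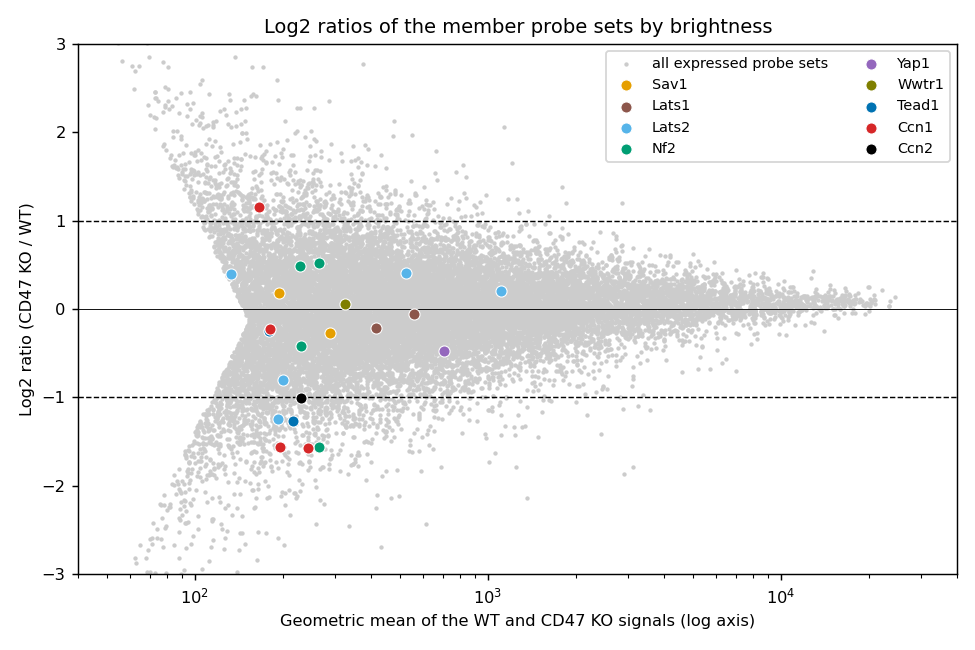
Log2 ratio (CD47 KO / WT) against the geometric mean of the WT and CD47 KO signals (log axis) for all expressed probe sets (grey) and the 22 expressed member probe sets (coloured by gene), with ratios beyond the axis not drawn. Dashed lines mark 2-fold. The members past 2-fold, 6 lower and 1 higher, lie at low brightness where the grey scatter is wide, and the brighter *Lats2*, *Lats1* and *Yap1* probe sets lie within 2-fold. Few points lie at the far left because most dim probe sets were not counted as expressed. Points below the start of the brightness axis are not drawn.

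Hippo genes outside the members were divided in direction. Of 40 listed, 33 were expressed, 18 of them higher and 15 lower on the brightest probe set, with a median of 0.07 and none past 2-fold. As means over the expressed probe sets of each gene, the median was -0.14. Of their 83 expressed probe sets, counted as for the members, 4 (4.82%) were more than 2-fold lower and 1 (1.20%) was higher. The backgrounds of 5.49% and 3.95% are not matched in brightness. Many of these genes were bright, with 21 of the 33 left at a threshold of the 75th percentile. The lower probe sets read *Btrc* (-2.18), a ligase gene in the breakdown of YAP, *Csnk1e* (-1.36), *Wwc2* (-1.19) and *Stk38* (-1.14). Each of these genes had a smaller difference on its brightest probe set. The higher probe set read *Map4k4* (1.16). Over all 11695 genes with an expressed probe set the median was 0.00, and 5.46% were more than 2-fold lower. The 12 expressed genes of the kinase cassette, *Stk4* and the MOB adaptor genes among them, ranged from -0.73 to 0.47, and the 7 genes of proteins that restrain the cassette ranged from -0.08 to 0.61. The largest differences on the brightest probe set were those of *Frmd6*, a FERM domain gene upstream of the kinases, with 395 and 214 (-0.88), and *Amotl1*, a gene of the angiomotin family that binds YAP, with 1306 and 763 (-0.78). *Tead2* and *Taok3*, a kinase gene, had -0.76 and -0.73. Over their expressed probe sets *Amotl1* ranged from -0.78 to 0.16 and *Taok3* from -0.73 to 0.06.

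Other genes known to be driven by YAP and TAZ were also divided, with a few large differences towards lower signals. Of 19 listed, 16 were expressed, 10 lower and 6 higher, with a median of -0.17, or -0.15 with means over probe sets, close to the -0.14 of the other Hippo genes under that setting. More than 2-fold lower on the brightest probe set were 3 of 16 and none was higher, where 5.46% of all genes were lower and 3.56% higher. Of the 3, *Foxf2* and *Igfbp3* reached the array median in WT alone, and with the constant of 39.2 added to both signals their ratios were -0.96 and -0.84, which left *Tgfb2* (-2.28) past 2-fold. Of the 24 expressed probe sets of the list, 6 were more than 2-fold lower, against 5.49% of all expressed probe sets and 13.7% of the dimmest 25%. They were read from 4 genes, the fourth being *Rbms3* with -1.63 on its dimmer probe set. That probe set (180 and 58.3) and the dimmer *Igfbp3* probe set (173 and 81.0) also reached the array median in WT alone. The backgrounds were not matched to the brightness of this list. *Tgfb2*, which encodes a ligand of the TGF-β receptors, had 1427 and 263 (-2.44, and -0.73 on the least changed of its 3 expressed probe sets). *Foxf2*, a transcription factor gene of pericytes and mesenchyme, had 277 and 123 (-1.17), and *Igfbp3*, a binding protein gene for insulin-like growth factors, had 220 and 106 (-1.06). *Dock5*, a gene of an exchange factor for Rac, was the highest with 209 and 355 (0.76). The classical target *Ankrd1* stayed below both medians, with at most 17.4 in WT and 8.29 in CD47 KO cells. *Ptpn14* belongs to this list and to that of the other Hippo genes.

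Since *Ccn1* is also an early response gene, the transcripts of that response were set beside it. The 12 immediate early genes had a median of 0.06, from -0.58 for *Junb* to 0.24 for *Atf3*, and none passed 2-fold. *Nr4a1* and *Fosb*, other transcription factor genes of this response, had -0.40 and -0.34. Of the other CCN genes only *Ccn3* (*Nov*) was expressed, with 631 and 911, a Log2 ratio of 0.53.

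Markers of fibroblasts and meninges, of mural cells and of the endothelium were mostly lower as well. Of all 11695 genes with an expressed probe set, 5809 were lower on the brightest probe set. Fibroblast and meningeal markers were lower for 11 of 12 expressed genes, with a median of -0.82 and a summed signal of 13540 in WT and 8478 in CD47 KO cells, and *Igfbp2*, *Igf2* and *Fn1* were the brightest. Mural cell markers were lower for 7 of 10, with a median of -0.51 and sums of 13403 and 9710. The brightest were *Rgs5* (-0.61), the actin gene *Acta2* (signals of 4004 and 2002) and *Vtn*, which was higher (0.18). Also higher were *Kcnj8* (0.33) and *Abcc9* (249 and 558, 1.17), whose other expressed probe set had -0.06. Endothelial markers were lower for 10 of 12, with a median of -0.42 and sums of 17645 and 15036, although the bright transporter genes *Slc2a1* and *Slco1a4* had -0.10 and 0.08 and *Cldn5*, of tight junctions, had -0.47. Choroid plexus and ependymal markers were lower for 5 of 8, with a median of -0.42, sums of 30312 and 29041 and *Ttr*, *Folr1* and *Kl* as the brightest. *Ttr* made up most of these sums, with 23088 and 23613. In this list *Ccdc153*, an ependymal marker, had 124 and 170 (0.45), and the ependymal markers *Foxj1* and *Tmem212* stayed below both medians. *Rarres2* ranged from -2.18 to 0.93 over its expressed probe sets. No expressed marker of these lists was at 0. Some markers, such as *Col3a1*, *Lum*, *Cspg4*, *Vwf* and *Tie1*, reached the array median in WT alone and so had to be lower. *Ccdc153* reached it in CD47 KO alone, which did not fix its direction because the WT median is the higher of the 2. The part of these cell types in the differences of *Ccn1*, *Ccn2* and *Tead1* was not tested.

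Astrocyte markers were higher in CD47 KO cells for 9 of 10, with a median of 0.30, sums of 29854 and 36928 and *Slc1a2*, *Gja1* and *Aldoc* as the brightest. Microglia markers were higher for 11 of 11, with a median of 0.19 and sums of 79394 and 92800, *Csf1r*, *Olfml3* and *Siglech* leading. These counts use the brightest probe set of each gene. Over its expressed probe sets the microglia marker *Sall1* ranged from -0.58 to 0.02. The astrocyte markers *Gfap*, *Slc4a4* and *Fgfr3* ranged from -1.79 to 0.98, from -0.35 to 0.56 and from -0.27 to 0.32. Neuron markers (*Snap25*, *Nefl* and *Syt1* the brightest) had a median of 0.00, with 5 higher and 4 lower. Oligodendrocyte markers (*Cnp*, *Mbp* and *Mobp*) had a median of -0.20, with 4 higher and 4 lower and sums of 16214 and 16693.

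**Figure D3:**
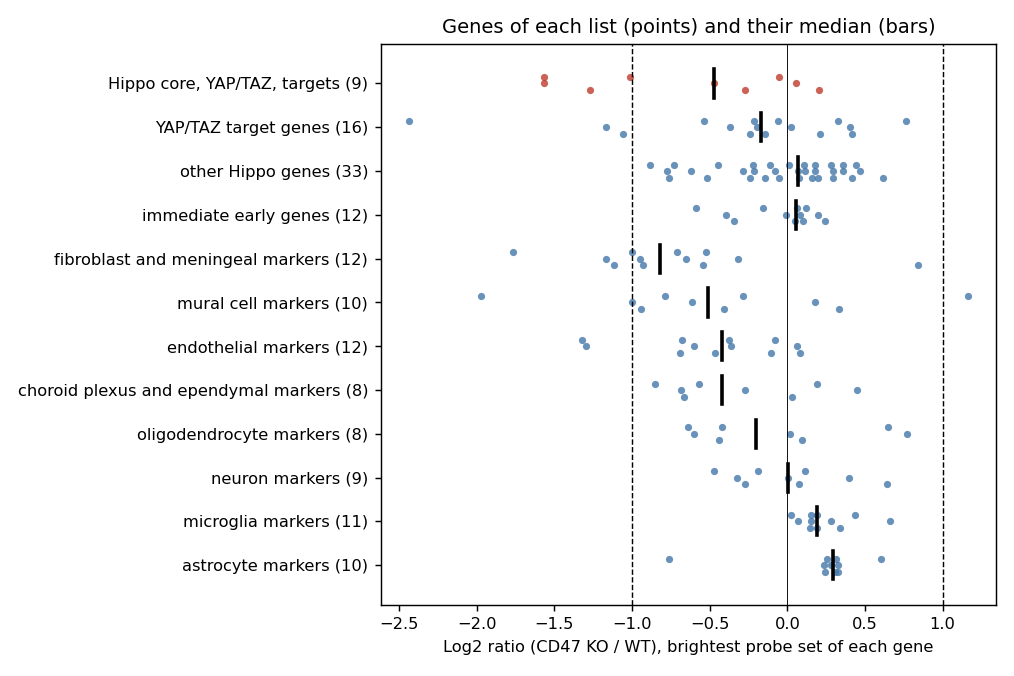
Log2 ratio (CD47 KO / WT) of the brightest probe set of each expressed gene (points, number of genes in parentheses) and the median of each list (bars), with dashed lines at 2-fold and 1 array per genotype. The members spread from -1.57 to 0.21, the other Hippo genes lie around a median of 0.07, and the fibroblast and meningeal markers have the lowest median, -0.82.

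The gene values depended mainly on the choice of probe set. Under 8 alternative settings the brightest-probe-set value of *Yap1* stayed between -0.48 and -0.45 and that of *Wwtr1* between 0.05 and 0.10. *Ccn2* ranged from -1.01 to -0.86, on both sides of 2-fold. *Tead1* passed 2-fold in 7 of 8 settings, as did *Nf2* and *Ccn1*. As means over their expressed probe sets these 3 genes had -0.76, -0.25 and -0.55. *Lats2* changed sign, from 0.21 to -0.21, with the mean over its probe sets.

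**Figure D4:**
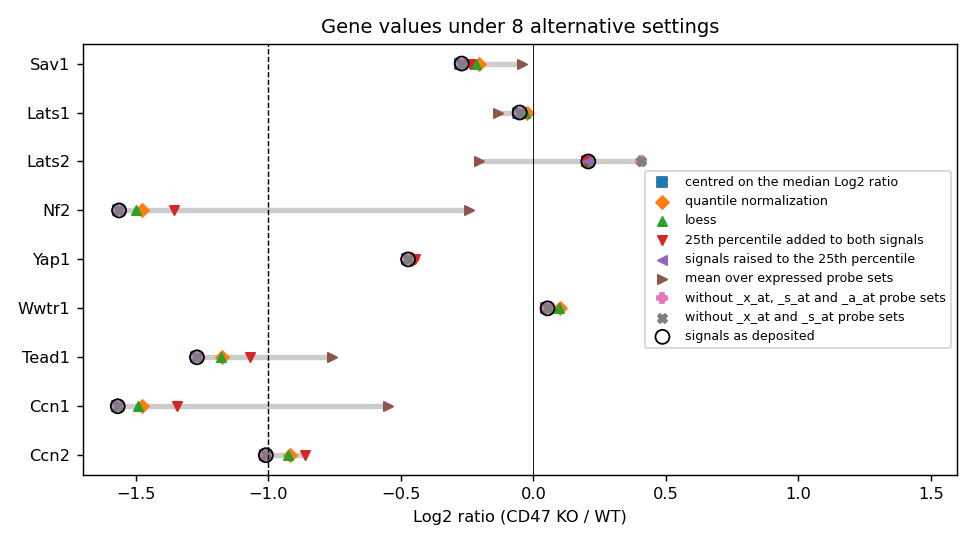
Log2 ratio (CD47 KO / WT) of each gene from the signals as deposited (open circles, brightest probe set) and under 8 alternative settings (symbols), with grey bars over their range and a dashed line at 2-fold lower. The widest bars are those of *Nf2* (-1.57 to -0.25) and *Ccn1* (-1.57 to -0.55), both ended by the mean over probe sets.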

How the data were processed

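Total RNA of brain mononuclear cells, taken from the interface of a Percoll gradient, was pooled by genotype, amplified, biotinylated and hybridised to 1 array per pool. The authors processed the scans with the Expression Console software, and the deposited values are MAS5 signal intensity values on a linear scale, 1 per probe set, scaled per array. Software versions are not given in the sources used here, and detection calls were not used. With 1 array per genotype, the precision is limited by their number.

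Probe sets were named from the platform annotation. All 9 member symbols matched the RefSeq gene table through their gene identifiers. Log2 ratios were taken without an offset in Python 3.11.15 (pandas 2.3.3, statsmodels 0.14.6), and the calculation was tested on simulated data. Each gene is represented by its expressed probe set of highest mean signal. All members are given. From the other gene lists up to 4 genes with the largest Log2 ratio were named, and from each marker list the 3 with the brightest probe sets; *Cd47* was named as the gene knocked out. *Xist*, *Kdm5d*, *Eif2s3y*, *Stk4*, *Tead3*, *Tead4*, *Ankrd1*, *Ptpn14*, *Btrc*, *Csnk1e*, *Wwc2*, *Stk38*, *Map4k4* and *Rbms3* are named outside this rule, chosen with their values already seen. The same holds for the markers *Ccdc153*, *Foxj1*, *Tmem212*, *Rarres2*, *Kcnj8*, *Abcc9*, *Col3a1*, *Lum*, *Cspg4*, *Vwf*, *Tie1*, *Sall1*, *Gfap*, *Slc4a4* and *Fgfr3*. The 12 hand-written lists and the members were chosen with earlier results of these data known. Likeness to other genes was not computed, since 2 arrays give each gene 1 ratio. The alternatives changed the signal threshold, the scaling, the treatment of low signals and the choice of probe set.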

Additional observations from a re-analysis of the deposited data

How the results depend on the processing

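Of 127 values recomputed under 12 alternatives, 116 moved by less than a set limit and none that was past 2-fold changed sign. For gene values the limit was the spread between probe sets of a gene, and for counts it was 1.5 times. For the medians of the members, the YAP/TAZ targets and the other Hippo genes it was smaller, at 0.18, 0.21 and 0.15. The sign change of *Lats2* from 0.21 to -0.21 lay within its limit. When a probe set had to reach the 75th percentile of an array, 4 member probe sets were left, 0 were more than 2-fold lower and 0 higher, their median Log2 ratio was 0.077, and the YAP/TAZ target median was -1.40 over 2 genes. With the array median required on both arrays, 2 were lower and 0 higher. The higher *Ccn1* probe set was also lost, leaving 0, when the 25th percentile was added to both signals or when all probe sets with the suffix _x_at, _s_at or _a_at were left out. It carries the suffix _a_at, which marks probe sets that read several transcripts of the same gene, and without _x_at and _s_at alone, the suffixes of possible cross-hybridisation, 5 were lower and 1 higher. That setting and that of keeping 1 probe set per accession (5 lower, 1 higher) were chosen after seeing the data. With means over expressed probe sets, *Ccn1* had -0.55, *Nf2* -0.25 and the median of the other Hippo genes was -0.14. Dim signals limit most members. No paired analysis was possible because each genotype has 1 array.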
